A study of Mus musculus with 6 samples.

Results

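Transcription factors that set the fate and identity of retinal photoreceptors were followed in adult Trim9 KO and WT mouse retinas, and 7 of 8 could be measured. They were chosen by name, as Otx2, Crx, Neurod1, Nrl, Nr2e3, Esrrb, Rxrg and Thrb, among the 18193 genes that the arrays read. A gene was read by every probe set, a group of short oligonucleotides against 1 transcript, whose annotation names that gene and no other. The 7 factors had 11 such probe sets, and each factor was represented by its brightest probe set, by mean over the 6 arrays. Nr2e3 was not listed in the annotation used and was not analysed here. Retinal RNA came from 3 Trim9 KO samples and 3 samples of WT littermates, each on 1 Affymetrix mouse expression array. The KO allele lacks exon 1 of Trim9, which had been excised by crossing to CMV-cre mice, so the deletion is not restricted to the retina. The labels call the tissue adult retina and give neither age in days nor strain, and their treatment text speaks of embryos, which was not followed. The labels do not say whether samples came from separate animals or pools, so p-values measure the spread between these samples.

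In the vertebrate retina, OTX2 commits postmitotic precursors to the photoreceptor lineage and turns on CRX, a related homeodomain protein that drives most photoreceptor genes. NRL then directs precursors to become rods and acts through NR2E3, an orphan nuclear receptor that silences cone genes in rods. In cells without NRL, the thyroid hormone receptor THRB and the retinoid receptor RXRG pattern the cone opsins. In the adult most of these factors remain on and maintain the genes of phototransduction.

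The promoters of the 3 factors that act in both rods and cones are shown, because homeodomain and E-box proteins of this group are known to act on such sequences. Each is the 250 bases 5′ of the outermost annotated start in RefSeq (build GRCm38.p6), and all 3 genes lie on the minus strand. Capitals mark TAATCC or its reverse complement GGATTA, the core letters that CRX and OTX2 bind, and CANNTG, the E-box that NEUROD1 and other basic helix-loop-helix proteins bind. The regions are chr7:15879956-15880205 for Crx, chr14:48667645-48667894 for Otx2 and chr2:79456637-79456886 for Neurod1.
Crx: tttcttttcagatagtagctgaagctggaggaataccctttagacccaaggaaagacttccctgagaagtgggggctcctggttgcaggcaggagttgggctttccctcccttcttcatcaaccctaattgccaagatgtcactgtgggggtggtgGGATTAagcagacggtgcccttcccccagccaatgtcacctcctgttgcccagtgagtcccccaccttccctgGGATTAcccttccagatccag
Otx2: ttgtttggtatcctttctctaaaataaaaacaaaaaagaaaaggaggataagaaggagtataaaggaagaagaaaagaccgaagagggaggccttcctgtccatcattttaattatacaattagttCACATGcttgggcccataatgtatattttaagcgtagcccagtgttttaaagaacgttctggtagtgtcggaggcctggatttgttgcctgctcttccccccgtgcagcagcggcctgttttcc
Neurod1: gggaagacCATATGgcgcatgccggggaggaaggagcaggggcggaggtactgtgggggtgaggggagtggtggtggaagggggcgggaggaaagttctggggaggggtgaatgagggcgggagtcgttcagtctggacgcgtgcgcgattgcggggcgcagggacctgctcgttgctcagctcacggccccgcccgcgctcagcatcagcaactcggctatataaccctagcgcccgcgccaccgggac
Crx carried 2 copies of GGATTA, which began 94 and 21 bases before its start, and no E-box. The windows of Otx2 and Neurod1 held 1 E-box each, with no TAATCC on either strand. Over the 14 annotated starts of the 8 genes, TAATCC was found on either strand at 3 (of Otx2, Crx and Thrb), and in 6.25% of 32851 promoter windows of the same length. An E-box was found at 10 of the 14 starts and in 66.2% of all windows. The nuclear receptor motif AGGTCA was found at 2 starts, of Rxrg and Thrb, and in 14.0% of all windows, and TGCTGA, the core of a MAF site that NRL binds, at 2 starts, of Otx2 and Neurod1, and in 16.1%. Motifs did not overlap in the 3 sequences shown, and a match of letters is no more than a description.

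Signals were deposited as intensities on a linear scale with a trimmed mean of 1500 on each array, and were analysed as log2(intensity + 16). Median intensity was 252 to 807 on the Trim9 KO arrays and 218 to 675 on the WT arrays. Trim9 KO replicate 1 correlated least with the other arrays (Pearson's r across probe sets 0.466 to 0.516), and the highest r of any pair was 0.887. The 3′ signal of the Actb control was 2.83 to 94.5 times its 5′ signal on Trim9 KO arrays and 3.43 to 20.2 times on WT arrays. For the Gapdh control the 3′ signal exceeded the 5′ signal by 6.91 to 7.29 on Trim9 KO arrays, against 8.10, 6.28 and -0.14 on WT replicates 1, 2 and 3 (log2 difference), so that WT replicate 3 stood apart. The labels give no sex, but the X-inactivation RNA Xist read 15.2 on replicate 3 of each genotype and 6.75 to 9.79 on the other 4 arrays (log2 intensity). The Y-linked gene Eif2s3y was at 4.92 on Trim9 KO replicate 3 and 4.31 on WT replicate 3, against 10.7 or more on the others. Each genotype thus held 1 female array, its replicate 3, and 2 male ones. Trim9 itself, read by the brightest of its probe sets, had intensities of 1498, 497 and 367 on Trim9 KO replicates 1, 2 and 3, against 4226, 1767 and 1667 on WT replicates 1, 2 and 3 (limma adjusted p = 0.999). By this and 1 other of its 4 probe sets all Trim9 KO arrays lay below all WT arrays, while the remaining 2 overlapped (log2 fold changes of -0.77 and -0.58). The positions of these probe sets along the transcript were not given, so this does not check the genotype labels. Photoreceptor RNA was abundant: 24 of 26 measured rod genes and 13 of 13 cone genes had a mean over the 6 arrays above 8.31. That value is the median of all probe sets on the log2 scale. On single arrays the mean of the rod genes was 12.83 to 15.02 and that of the cone genes 11.66 to 13.21. With 3 arrays a genotype precision is limited, and in bulk retina fewer cells of a type and less RNA per cell cannot be told apart.

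No probe set of the 7 factors passed limma's adjusted threshold, and 1 of them, for Crx, had separate groups. In limma, 0 of the 11 probe sets passed an adjusted p of 0.05 (adjusted p = 0.999 for each), against 0.0% of all 45037 probe sets, and 0 had an unadjusted p under 0.05, against 2.88% of all and 2.75% of those that name 1 gene. By brightest probe set the share of all genes was 2.56%. Mean signal was lower in Trim9 KO than in WT retinas for 5 of 7 factors, against 44.8% of all genes. Their median log2 fold change (Trim9 KO over WT) was -0.29, against 0.14 for all genes. It turned to 0.20 without WT replicate 1 and to 0.11 relative to the rod genes, and was -0.61 without Trim9 KO replicate 3 and -0.69 with the mean of each factor's probe sets. The Trim9 KO and WT arrays overlapped for all 7 brightest probe sets, while groups did not overlap for 8.24% of all genes. Of the 11 probe sets, 1 had groups that did not overlap, the dimmer one for Crx, against 7.99% of all probe sets that name 1 gene (3.06% with Trim9 KO below WT, as here).

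**Figure D1:**
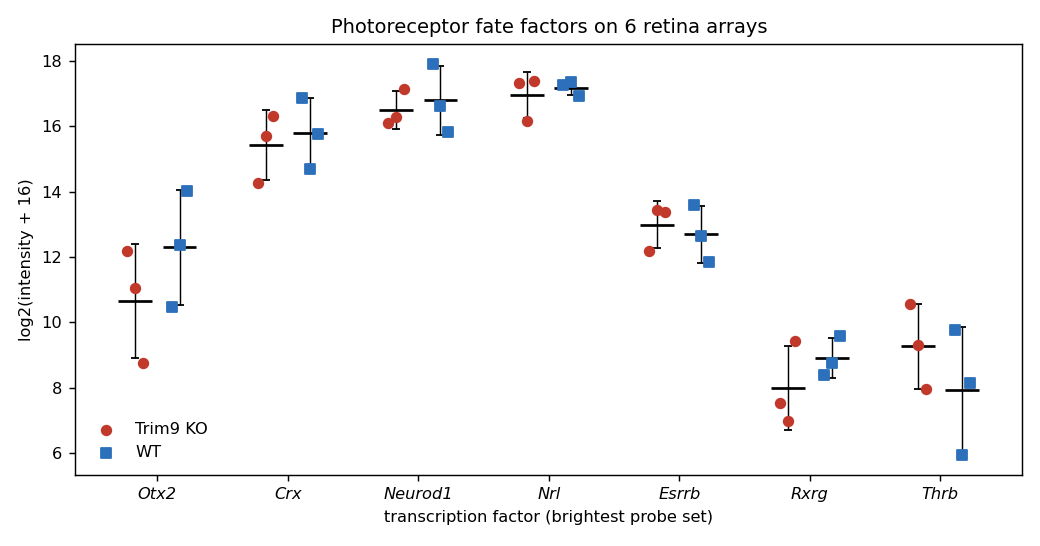
Log2(intensity + 16) (y axis) of the brightest probe set of each factor (x axis) on 3 Trim9 KO arrays (red circles) and 3 WT arrays (blue squares), with 1 point per array, the mean as a line and the SD as bars. The groups overlap for all 7 factors. Nrl has the tightest WT points (SD 0.23), and Otx2 and Thrb span 5.26 and 4.63 log2 units.

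Among the factors of the shared photoreceptor lineage, Otx2 (chr14:48656781-48667644) had the largest difference of means. Its intensity was 4621, 2122 and 413 on Trim9 KO replicates 1, 2 and 3, against 1404, 5322 and 16483 on WT replicates 1, 2 and 3. The lowest array was Trim9 KO replicate 3 and the highest WT replicate 3, but WT replicate 1 lay below 2 of the Trim9 KO arrays. Otx2 averaged 10.66 ± 1.75 in Trim9 KO and 12.29 ± 1.77 in WT retinas (log2 intensity, SD, n = 3 each). A two-sided exact permutation test, which cannot go below p = 0.1 with these 6 arrays, gave p = 0.4. The log2 fold change was -1.63 (95% interval -4.34 to 1.08; limma adjusted p = 0.999). It was -0.67 without Trim9 KO replicate 3 and -0.76 without WT replicate 3, and -2.53 without WT replicate 1. On the male arrays alone the log2 fold change turned to 0.19, and replicate 3, the female array, was the lowest in Trim9 KO and the highest in WT retinas. With 1 female array per genotype, sex cannot be told apart from the single array. WT replicate 3 was also the array with the outlying Gapdh value, and the part of RNA quality in its Otx2 signal was not tested. OTX2 is also made in bipolar cells and in the pigment epithelium, which can adhere to a dissected retina. Mean signal was higher in Trim9 KO retinas for 10 of 13 pigment epithelium markers, and the mean of the list was 9.87 to 11.5 on Trim9 KO arrays and 9.84 to 10.2 on WT arrays (log2 intensity). Of 12 bipolar cell markers 7 had a lower mean, with list means of 10.4 to 11.3 on Trim9 KO and 11.0 to 11.3 on WT arrays. The part of these cells in the Otx2 signal was not tested.

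Crx (chr7:15865947-15879955), the homeobox gene whose product activates rod and cone genes alike, was read by 2 probe sets designed from the same RefSeq transcript. The brighter one, 1418705_at, read 19582, 53160 and 81829 on Trim9 KO replicates 1, 2 and 3, against 119995, 26668 and 55158 on WT replicates 1, 2 and 3 (intensity). Each genotype held both a high and a low array, with a log2 fold change of -0.35 (95% interval -2.61 to 1.91). Its direction turned to 0.23 without Trim9 KO replicate 1 and to 0.20 without WT replicate 1. The dimmer one, 1449185_at, read 2533, 2619 and 2374 on the Trim9 KO arrays, against 4412, 5127 and 6568 on the WT arrays. Here all 3 Trim9 KO arrays lay below all 3 WT arrays, and the spread was small, with means of 11.30 ± 0.07 in Trim9 KO and 12.38 ± 0.29 in WT retinas (log2 intensity, SD, n = 3 each). The log2 fold change was -1.07 (95% interval -3.04 to 0.89), a 2.11-fold lower signal in Trim9 KO retinas. The two-sided exact permutation test gave p = 0.1, below which 6 arrays in equal groups cannot go. In limma, which draws the error of each probe set towards that of all others, the unadjusted p was 0.254. The difference was -0.92 to -1.21 whichever array was left out, and -0.68 to -1.40 under the other alternatives. The groups remained apart after quantile normalization (11.04 to 11.50 in Trim9 KO and 12.03 to 12.54 in WT retinas). They overlapped once array medians were made equal (10.35 to 11.88 in Trim9 KO and 11.62 to 13.02 in WT retinas), and also relative to the rod genes of each array. It was singled out after its values were seen, as the 1 of 11 with separate groups.

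Neurod1 (chr2:79452637-79456636) encodes a basic helix-loop-helix factor that photoreceptors need for survival and that amacrine cells also make. Its brighter probe set, 1426412_at, read 69566, 79112 and 144879 on Trim9 KO replicates 1, 2 and 3, against 247678, 99763 and 58572 on WT replicates 1, 2 and 3 (intensity). All Trim9 KO arrays lay within the WT range, and the log2 fold change was -0.29 (95% interval -2.43 to 1.86). The other, 1426413_at, read 81234, 80825 and 8939 on the Trim9 KO arrays, against 11846, 128852 and 53587 on the WT arrays, with a log2 fold change of -0.16 (95% interval -2.89 to 2.57). The pair gave similar differences between genotypes but opposite orders of the arrays: Trim9 KO replicate 3 and WT replicate 1 were the highest of their genotypes by the brighter and the lowest by the dimmer. Mean signal was lower in Trim9 KO retinas for 8 of 12 amacrine cell markers, with list means of 10.3 to 11.8 on Trim9 KO and 10.3 to 12.0 on WT arrays (log2 intensity). Their part in the Neurod1 signal was not tested.

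**Figure D2:**
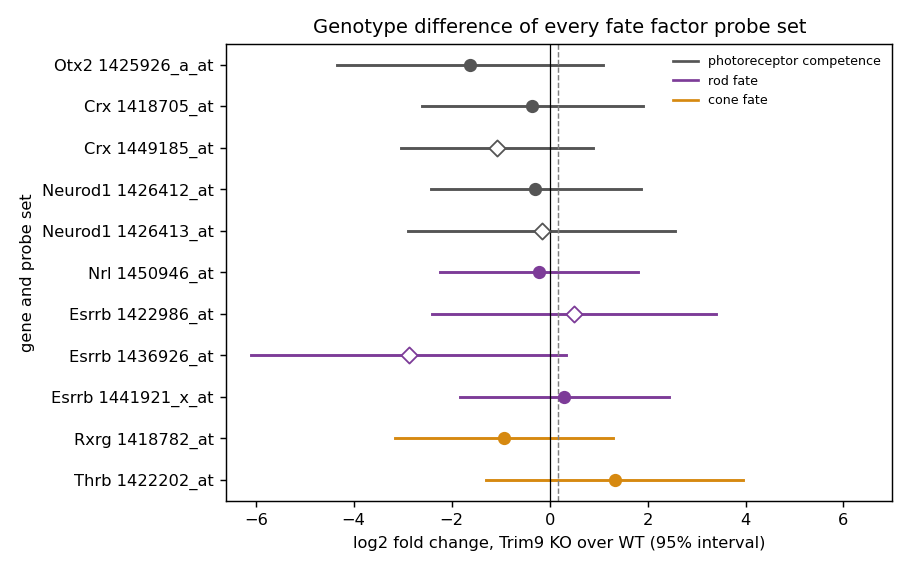
Log2 fold change, Trim9 KO over WT (x axis), of each of 11 probe sets (y axis). Filled circles are the brightest probe set of a factor, open diamonds the others, horizontal lines the 95% intervals of limma, and the dashed line the median of all probe sets (0.18). Every interval includes 0, and that of Esrrb probe set 1436926_at, at -2.88, is the widest.

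Of the rod factors, Nrl (chr14:55518978-55524981), the basic leucine zipper gene of the Maf family that rods need to form, was the steadiest of the 7 before further normalization. Its intensity was 165656, 73358 and 172173 on Trim9 KO replicates 1, 2 and 3, against 155850, 169713 and 124956 on WT replicates 1, 2 and 3. Trim9 KO replicate 2 lay below all WT arrays and Trim9 KO replicate 3 just above them. Nrl averaged 16.96 ± 0.70 in Trim9 KO and 17.18 ± 0.23 in WT retinas (log2 intensity, SD, n = 3 each). The log2 fold change of -0.22 had a 95% interval from -2.24 to 1.81, so that signals from 4.74-fold lower to 3.50-fold higher in Trim9 KO retinas were within it. Without Trim9 KO replicate 2 the log2 fold change turned to 0.18. The within-group SD of Nrl was 0.52, and 7.84% of genes had a smaller one. After quantile normalization Nrl was no longer the steadiest, at 15.69 to 17.54 in Trim9 KO and 16.49 to 18.9 in WT retinas (log2 intensity). The brightest Neurod1 probe set was then at 15.79 to 17.09 in Trim9 KO and 16.86 to 17.16 in WT retinas. The log2 fold change of Nrl was -0.91 on that scale.

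Esrrb (chr12:86361117-86521628), an estrogen-related receptor gene that in mice lies downstream of Nrl and supports rod survival, was read by 3 probe sets of different source transcripts, and they disagreed. The brightest, 1441921_x_at, read 4617, 11072 and 10569 on Trim9 KO replicates 1, 2 and 3, against 12395, 6369 and 3643 on WT replicates 1, 2 and 3 (intensity). Its log2 fold change was 0.30 (95% interval -1.83 to 2.43) and turned to -0.02 when array medians were made equal and to -0.31 on the male arrays alone. The ending of its name marks a probe set with probes that may bind other transcripts. Another, 1436926_at, read 64.3, 1723 and 6431 on the Trim9 KO arrays, against 6156, 4061 and 14209 on the WT arrays. Its log2 fold change of -2.88 (95% interval -6.09 to 0.33, two-sided exact permutation test, p = 0.3) rested on Trim9 KO replicate 1, and was -1.08 without it. It was -4.25 without Trim9 KO replicate 3, where limma's unadjusted p was 0.012 and its adjusted p = 0.854. Unadjusted limma p-values were 0.0402 on the male arrays alone (log2 fold change -3.75) and 0.0492 with sex as a block, with an adjusted p = 1.0 in both. With a trended robust prior limma's unadjusted p was 0.0291 and its adjusted p = 0.999. The dimmest, 1422986_at, read 1618, 348 and 138 on the Trim9 KO arrays, against 40.6, 1180 and 463 on the WT arrays, with a log2 fold change of 0.50 (95% interval -2.40 to 3.40). Trim9 KO replicate 1 was thus the highest array by this probe set and the lowest by 1436926_at. With the mean of the 3 probe sets the log2 fold change of Esrrb was -0.69.

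The cone factors had differences of opposite sign, neither beyond the spread. Both were dim, with means over the 6 arrays of 8.44 for Rxrg and 8.61 for Thrb (log2 intensity). The median of all probe sets was 8.31. Rxrg (chr1:167598362-167639623), a retinoid X receptor gene that in the mouse retina marks cones and some ganglion cells, read 169, 109 and 674 on Trim9 KO replicates 1, 2 and 3, against 322, 412 and 751 on WT replicates 1, 2 and 3 (intensity). Trim9 KO replicates 1 and 2 lay below the WT arrays and replicate 3 among them. Rxrg was below the median intensity of the array on Trim9 KO replicates 1 and 2 (807 and 460) and on WT replicate 2 (675). Rxrg averaged 7.98 ± 1.29 in Trim9 KO and 8.91 ± 0.61 in WT retinas (log2 intensity, SD, n = 3 each). The difference was -0.93 (95% interval -3.16 to 1.30; two-sided exact permutation test, p = 0.3). Without Trim9 KO replicate 2 it was -0.42, and without Trim9 KO replicate 3 it was -1.65. Thrb (chr14:17659225-18040097) encodes thyroid hormone receptor beta, an isoform of which directs the medium wavelength opsin of mouse cones. It read 1495, 611 and 232 on the Trim9 KO arrays, against 843, 45.1 and 268 on the WT arrays. The lowest of the 6 was WT replicate 2, and the other 5 overlapped. There Thrb read 45.1, against a median intensity of 675 on that array. Its means were 9.27 ± 1.30 in Trim9 KO and 7.94 ± 1.91 in WT retinas (log2 intensity, SD, n = 3 each), and the log2 fold change of 1.33 (95% interval -1.29 to 3.95; two-sided exact permutation test, p = 0.5) was 0.32 without WT replicate 2. Which isoform of THRB the probe set reads is not known here. Mean signal was lower in Trim9 KO retinas for 5 of 11 ganglion cell markers (list means of 12.0 to 12.3 on Trim9 KO and 11.9 to 12.9 on WT arrays), and their part in the Rxrg signal was not tested.

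The gap between the brightest and the dimmest probe set of a gene was largest on the same arrays for Crx, Neurod1 and Esrrb. For Crx the brighter probe set exceeded the dimmer by 2.94, 4.33 and 5.10 on Trim9 KO replicates 1, 2 and 3, against 4.76, 2.38 and 3.07 on WT replicates 1, 2 and 3 (log2 difference). For Neurod1 the gap was -0.22, -0.03 and 4.02 on the Trim9 KO arrays, against 4.38, -0.37 and 0.13 on the WT arrays. For both genes, and for the pair 1422986_at and 1441921_x_at of Esrrb, Trim9 KO replicate 3 and WT replicate 1 had the largest gaps. The other Esrrb pair with the brightest probe set did not show this: 1436926_at lay from 1441921_x_at by -5.85, -2.67 and -0.72 on the Trim9 KO arrays, against -1.01, -0.65 and 1.96 on the WT arrays, with its largest gap on Trim9 KO replicate 1. These arrays had the highest r of any pair (0.887) and the lowest median intensities of their genotypes (252 and 218). Their Actb 3′ to 5′ ratios were 90.5 and 20.2, and that of Trim9 KO replicate 2, with small Neurod1 and large Crx gaps, was 94.5. Where the probe sets lie along the transcripts is not known here, and the part of RNA quality was not tested. Among 2407 pairs of probe sets above the median that share a gene and a source transcript, the gap ranged over the 6 arrays by a median of 4.31. The range was 2.72 for Crx, with 18.0% of pairs below it, and 4.75 for Neurod1, with 57.6% below it.

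**Figure D3:**
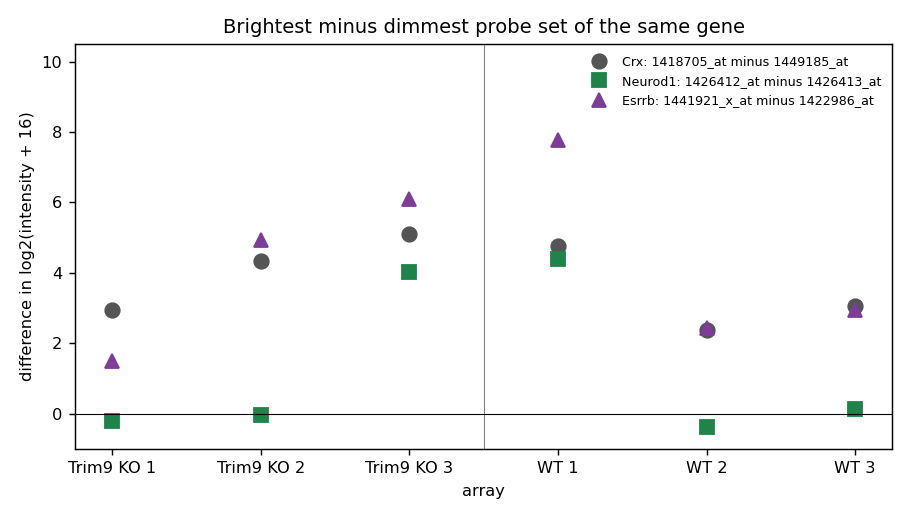
Difference in log2(intensity + 16) between the brightest and the dimmest probe set of the same gene (y axis) on each array (x axis), for Crx (grey circles), Neurod1 (green squares) and Esrrb (purple triangles). All 3 genes have their largest gaps on Trim9 KO replicate 3 and WT replicate 1, with 4.02 and 4.38 for Neurod1.

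Across arrays, Otx2 and the dimmest probe sets of Neurod1 and Esrrb were low where rod genes were low, whereas the brightest probe sets of Crx, Neurod1 and Esrrb were not. The mean of 26 rod genes was 14.84, 13.72 and 12.83 on Trim9 KO replicates 1, 2 and 3, against 12.99, 14.57 and 15.02 on WT replicates 1, 2 and 3 (log2 intensity). The arrays with low rod means, Trim9 KO replicate 3 and WT replicate 1, were the lowest for Otx2 and the highest for the brightest probe sets of Crx and Neurod1. By Neurod1 probe set 1426413_at the same arrays were the lowest, at 13.13 on Trim9 KO replicate 3 and 13.53 on WT replicate 1 (log2 intensity), and by Esrrb probe set 1422986_at they were also the lowest, at 7.27 and 5.82. Within Neurod1 and Esrrb the contrast thus lay between probe sets of the same gene. By Crx probe set 1449185_at, Trim9 KO replicate 3 and WT replicate 1 were also the lowest of their genotypes, at 11.22 and 12.11. The margins were small, with 11.32 and 11.36 on the other Trim9 KO arrays and 12.33 and 12.68 on the other WT arrays. Esrrb probe set 1436926_at, neither the brightest nor the dimmest, read 12.65 and 12.59 there, the lowest of neither genotype. Otx2 had 1 probe set, so that gene and probe set cannot be told apart for it. Relative to the rod mean of the same array, Otx2 lay at -2.66, -2.66 and -4.09 on the Trim9 KO arrays, against -2.52, -2.19 and -1.01 on the WT arrays, so that the groups did not overlap on this scale, with a gap narrower than the spread within either. The log2 fold change of Otx2 was then -1.23. With equal array medians its groups did not overlap either (9.40 to 11.22 in Trim9 KO and 11.33 to 14.35 in WT retinas). After quantile normalization they overlapped (9.39 to 12.5 in Trim9 KO and 10.82 to 14.19 in WT retinas), as they did without rescaling. The share of all genes with separate groups was 8.24% without rescaling and was not computed on the other scales. Crx lay at -0.59, 1.98 and 3.49 relative to the rod mean on the Trim9 KO arrays, against 3.88, 0.14 and 0.73 on the WT arrays, and its log2 fold change was 0.04. On this scale, chosen after the data were examined, mean signal was lower in Trim9 KO retinas for 2 of 7 factors, and the median log2 fold change over all probe sets was 0.57.

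**Figure D4:**
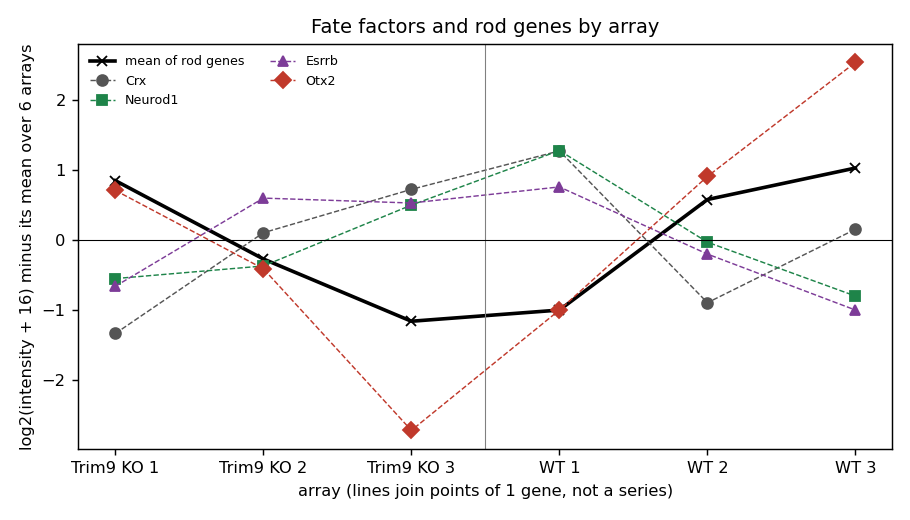
Log2(intensity + 16) minus its own mean over the 6 arrays (y axis) on each array (x axis), for the mean of 26 rod genes (black line) and for the brightest probe sets of Crx, Neurod1, Esrrb and Otx2. Otx2 is low where rod genes are low, on Trim9 KO replicate 3 and WT replicate 1, while these probe sets of Crx and Neurod1 are at their highest there. The other Neurod1 probe set, not drawn, is at its lowest on those arrays (13.13 and 13.53). The other Crx probe set, not drawn, is there narrowly at the lowest of each genotype (11.22 and 12.11).

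Genes around these factors were read as lists, with no list test. Among 34 other regulators of photoreceptor fate, mean signal was lower in Trim9 KO retinas for 23 and higher for 11 (median -0.34 on the log2 scale), and 0 had an unadjusted p under 0.05. The median was -0.72 without WT replicate 1 and turned to 0.10 without WT replicate 2 and to 0.11 with array weights, and was 0.06 relative to the rod genes. All 3 Trim9 KO arrays lay below all WT arrays for 5 of the 34 and above for 0, against 2.89% and 5.35% of all genes. The 5 were Notch1, Prdm1, Mef2c, Rora and Rorb, of which the last 3 (log2 fold changes of -1.09, -1.17 and -1.35) were named after their values were seen. Rax, an early eye-field homeobox gene that stays on in photoreceptors, read 99.9, 97.7 and 264 on Trim9 KO replicates 1, 2 and 3, against 198, 1108 and 2217 on WT replicates 1, 2 and 3 (log2 fold change -2.40, standard error 1.10). Prdm1, which keeps new photoreceptors from becoming bipolar cells, read 1318, 269 and 783 on the Trim9 KO arrays, against 1345, 3555 and 2019 on the WT arrays. Its log2 fold change was -1.68, and Trim9 KO replicate 1 lay just under WT replicate 1. The receptor gene Notch1, whose signal holds progenitors back from the photoreceptor fate, was at -2.16.

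Of the 26 rod genes, which are largely targets of CRX and NRL, mean signal was lower in Trim9 KO retinas for 20 and higher for 6 (median -0.56 on the log2 scale, and -0.17 to -1.03 when an array was left out). The median turned to 0.29 on the male arrays alone. Cabp4, a calcium-binding protein of the photoreceptor synapse, read 4117, 8621 and 12137 on Trim9 KO replicates 1, 2 and 3, against 23974, 18660 and 18677 on WT replicates 1, 2 and 3 (log2 fold change -1.42, standard error 0.93). All 3 Trim9 KO arrays lay below the WT arrays, the 1 rod gene of 26 of which this was true, against 2.89% of all genes. Unc119 and the arrestin gene Sag were at -1.67 and -1.35, with groups that overlapped for both. Sag was lowest on Trim9 KO replicate 2 (13419), against 118116 and 68684 on the other Trim9 KO arrays and 116829 to 127718 on WT arrays. Unc119 read 36379 on Trim9 KO replicate 1, above WT replicates 1 and 2 (3790 and 30031). Mean signal was likewise lower for 10 of 13 cone genes (median -0.70, and -0.24 to -1.18 when an array was left out). The short wavelength opsin gene Opn1sw, a target of THRB and RXRG repression, was at -1.59, with intensities of 2264 to 7011 on Trim9 KO arrays, all above the 1884 of WT replicate 1. Opn1mw, the medium wavelength opsin gene that THRB directs, was at -1.51, and the cone transducin subunit Gnb3 at -1.59. In none of these lists did a gene pass limma's adjusted threshold (lowest adjusted p = 0.999), and 0 rod and 0 cone genes had an unadjusted p under 0.05.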

How the data were processed

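The deposited table holds 1 intensity per probe set and array, on a linear scale, that the authors had scaled to the same trimmed mean. The submitters' processing notes name MAS5, with no version, whereas the methods name RMA. The unequal medians and the linear scale are those of MAS5 output. RNA had been extracted with Tri-reagent, amplified and biotinylated.

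After removal of 64 controls, log2(intensity + 16) of 45037 probe sets was compared between 3 Trim9 KO and 3 WT arrays in R 4.3.3 by the lmFit and eBayes functions of limma 3.58.1, with Benjamini-Hochberg adjustment over all of them and a threshold of 0.05. Probe sets were named from the platform annotation: 34945 name 1 gene, 932 several and 9160 none. Exact permutation tests over the 6 arrays were two-sided. The fit was also run on simulated data, and how many changes it recovered at the spread of these arrays is not reported here. Figures were drawn with Python 3.11.15, pandas 2.3.3 and matplotlib 3.10.9. Promoters came from RefSeq.

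The factors and the gene lists (other fate regulators, rod, cone, bipolar, amacrine, horizontal and ganglion cells, Müller glia, pigment epithelium, lens, blood and vessels) were chosen with earlier results of these data known. Besides the factors and Trim9, named genes were the 3 of each list with the largest absolute limma statistic and the 2 genes most like each factor across arrays. Same-numbered arrays of the genotypes did not deviate together, so no pairing was used. The alternatives tried were equal array medians, quantile normalization, removal of dim probe sets, a replicate block, pseudocounts of 1 and 64, a trended robust prior, array weights, averaging the probe sets of a gene, leaving out each array and, added after the data were examined, scaling to the rod genes, the male arrays alone and sex as a block, with sex read from Xist and Eif2s3y.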

Additional observations from a re-analysis of the deposited data

How the results depend on the processing

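No factor passed the adjusted threshold under any of the 18 alternatives. Rxrg and Thrb, the dimmest factors, kept their direction in all of them, as Otx2 did in all but the male arrays alone. The lowest adjusted p of Otx2 over the alternatives was 0.627, with limma. Log2 fold changes of the other sign came from scaling to the rod genes (Crx 0.04, Neurod1 0.11, Nrl 0.17 and Neurod1 probe set 1426413_at 0.23), from equal array medians (Esrrb -0.02), from the mean of probe sets (Esrrb -0.69), from the male arrays alone (Otx2 0.19, Esrrb -0.31 and Neurod1 probe set 1426413_at 1.05) and from array weights (Neurod1 probe set 1426413_at 0.18); the cause was not tested. When an array was left out, log2 fold changes were -2.53 to -0.67 for Otx2, -0.89 to 0.23 for Crx, -0.76 to 0.28 for Neurod1, -0.43 to 0.18 for Nrl, -0.13 to 0.76 for Esrrb, -1.65 to -0.42 for Rxrg and 0.32 to 2.23 for Thrb. They were -1.10 to 0.90 for Neurod1 probe set 1426413_at and -0.75 to 1.45 for Esrrb probe set 1422986_at. Probe sets with an unadjusted p under 0.05 numbered 1296, against 3637 with array weights, 632 of 22518 probe sets above the median, and 854 (without Trim9 KO replicate 2) to 2556 (without Trim9 KO replicate 3) with an array left out, and 0 passed an adjusted p in any setting. With the replicate number as a block 864 had an unadjusted p under 0.05; the block changed no log2 fold change, as the design is balanced (-0.35 for Crx), and same-numbered arrays deviated from their group means with r of -0.234, -0.0815 and 0.0331. Over all probe sets the median log2 fold change was 0.18, and it was 0.02 after quantile normalization and -0.14 with equal array medians.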

Other observations

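Markers of cells outside the photoreceptor layer were read in the same way, with no list test, and 0 of them passed an adjusted p of 0.05 in limma. Of 13 pigment epithelium markers 10 had a higher mean in Trim9 KO retinas (median log2 fold change 0.80, and 0.52 to 1.28 when an array was left out), among them the melanosome gene Mlana (2.59, with all Trim9 KO arrays above all WT arrays), the melanin enzyme gene Dct (1.72) and Ttr, the transthyretin gene (1.70). Of 9 lens genes 6 had a higher mean (median 0.68), with Crygs, Cryab and Crybb2 at 1.16 to 1.91. The median was -0.14 without Trim9 KO replicate 2, 0.00 without WT replicate 3 and 1.42 without WT replicate 2. Only 2 of the 9 had a mean above the median of all probe sets. Crygs was high on Trim9 KO replicate 1 alone (intensity 2931, against 9.17 to 172 elsewhere). Crybb2 was high on Trim9 KO replicate 2 alone (1204, against 24.6 to 120 elsewhere). Of 10 blood, vessel and microglia markers 9 had a higher mean (median 0.94, and 0.33 without Trim9 KO replicate 2). Pecam1 was at 1.59, Csf1r at 1.53 and Aif1 at 1.41. Only 4 of the 10 had a mean above the median of all probe sets. Aif1 read 2209 on Trim9 KO replicate 1, while Trim9 KO replicate 3, at 85.0, was the lowest of the 6 arrays (intensity).

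Mean signal was lower in Trim9 KO retinas for 10 of 13 Müller glia markers (median -0.45, and -0.11 without WT replicate 1 to -0.81 without Trim9 KO replicate 3), with the lipoprotein gene Apoe at -3.02, Dkk3 at -1.46 and Clu at 1.26. Signal was on average lower for 6 of 7 horizontal cell markers (median -0.47, and -0.14 without Trim9 KO replicate 1 to -1.21 without WT replicate 1), with Lhx1 at -1.83, Tpm3 at -1.17 and Onecut1, which is also a regulator of cone fate, at -0.99. The medians were -0.23 for 12 bipolar cell markers (Cabp2 -1.84, Gng13 1.38, Scgn -1.13), -0.31 for 12 amacrine cell markers (Slc18a3 -2.80, Th 2.34, Pax6 -1.08) and 0.20 for 11 ganglion cell markers (Nefm -3.55, Opn4 2.08, Pou4f1 1.73). When an array was left out they were -0.34 to 0.11 for bipolar, -0.75 to 0.06 for amacrine and -0.34 to 0.26 for ganglion cells, so none of the 3 kept its sign. Limma's unadjusted p was under 0.05 for 1 of 11 ganglion cell markers (Nefm, 0.0122) and 1 of 13 pigment epithelium markers (Mlana, 0.0227). The same held for 1 of 12 amacrine cell markers (Slc18a3, 0.0283) and for 0 in each other list of this section. The share of all genes was 2.56%.

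The genes most like each factor over the 6 arrays were sought among the 12056 genes with a mean above the median of all probe sets. Likeness was the root mean square difference of log2 intensities after each gene was centred on its mean. On that scale the factors' deviations from their own means were 1.65 for Otx2, 0.89 for Crx, 0.70 for Neurod1 and 0.44 for Nrl. They were 0.67 for Esrrb, 0.95 for Rxrg and 1.49 for Thrb. The nearest of so many genes over 6 arrays are a description, and shared control was not tested. Nearest were Dlg4 (0.35) and Coil (0.38) to Otx2, Eprs (0.12) and Hspb6 (0.15) to Crx, and Hdac9 (0.13) and Prkd3 (0.14) to Neurod1. Nearest to Nrl were Dcaf13 (0.09) and Kpna6 (0.12), to Esrrb Gcsh (0.11) and Far1 (0.14), to Rxrg Hkdc1 (0.30) and Mrpl58 (0.32), and to Thrb Bcl2l14 (0.24) and Ube2cbp (0.33). Among the factors themselves, the nearest pair was Neurod1 and Esrrb (0.46). Otx2 resembled none of the others. Its smallest difference, from Nrl (1.76), was larger than its deviation from its own mean (1.65), and Nrl varied least (0.44).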
